A study of Rattus norvegicus with 9 samples.

Results

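miR-199a and miR-214 are a pair of small regulatory RNAs known for high expression in fibroblasts and other mesenchymal cells, and in the heart they are studied for their part in fibrosis, hypoxia and growth of the muscle. The members described here are all sequences that were annotated to the rat entries mir-199a and mir-214, with every type of match included. They were 466 sequences, 341 of mir-199a and 125 of mir-214, of 46358 annotated sequences in all and 31220 annotated to rat entries. The tissue was the left ventricular free wall of 3 male Sprague-Dawley rats, 8 months old, and each heart (6, 7 and 8) gave a piece of epicardium, mid-myocardium and endocardium. Small RNA of the 9 pieces was sequenced, so each layer has 3 libraries. The animals carried no treatment or engineered allele in the labels, and the layers were cut as slices of the wall, so each library holds all cell types of its slice.

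Values are in RPMM, which is reads per 1000000 annotated reads of the library. Annotated reads ran from 283991 (mid-myocardium of heart 6) to 1428025 (endocardium of heart 7), and 3 reads, taken as the smallest abundance that could be shown, corresponded to 2.10 to 10.6 RPMM. Intervals on shares are 95% Wilson intervals. They, and the 3-read limit, hold for counting error alone, as copies made by PCR were counted without a molecular barcode. Fewer cells of a type and less RNA per cell cannot be told apart in such tissue. Of a list of 12 miRNAs linked to fibroblasts and mesenchyme, which includes the members, 10 had rat reads. No sequence was annotated to a rat entry named mir-155 or mir-199b, and whether the annotation held such entries was not tested. The summed level of this list was 18302 to 35503 RPMM in epicardium, 18367 to 23665 in mid-myocardium and 15992 to 27854 in endocardium, and that of 7 cardiomyocyte miRNAs (6 with reads, since the rat table used the name mir-208, also on the list, and not mir-208a) was 53981 to 106902, 105585 to 142202 and 61556 to 103423.

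A miRNA is cut from a hairpin whose arms, 5p and 3p, can each give a mature strand of about the same length. Bases 2 to 8 of that strand, the seed, contribute most to the choice of target mRNAs, so a different 5′ end gives a different seed, and variants of one strand are called isomiRs. In RefSeq (GRCr8) Mir199a2 and Mir214 lie on chromosome 13 within the span of Dnm3, which encodes a dynamin, and 5329 bases separate the last base of miR-199a-3p from the first base of the Mir214 hairpin. In mouse both hairpins are known to come from one long transcript that runs antisense to Dnm3. For mouse the annotation also held an entry named mir-199a-1. Whether all reads under rat mir-199a came from the chromosome 13 locus was not tested. Mature miR-199a-5p lies at chr13:77116255-77116277, miR-199a-3p at chr13:77116294-77116315, miR-214-5p at chr13:77121656-77121672 and miR-214-3p at chr13:77121713-77121733, all on the plus strand. The RefSeq mature strands are shown because the reads are measured against them, with the seed in capitals.
miR-199a-5p: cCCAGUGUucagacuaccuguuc
miR-199a-3p: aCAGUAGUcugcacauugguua
miR-214-5p: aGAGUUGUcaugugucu
miR-214-3p: aCAGCAGGcacagacaggcag
Each of the 4 seeds was found in 1 of 724 RefSeq rat mature entries, its own, so the members share no seed with each other.

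The sequences that carried most reads of each arm are shown as read, in DNA letters and with bases 2 to 8 in capitals, since for all 4 arms the most common one was not the RefSeq entry.
miR-199a-3p, 6219 reads: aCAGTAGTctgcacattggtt
miR-199a-3p, 2039 reads: aCAGTAGTctgcacattggtta
miR-199a-3p, 1215 reads: tACAGTAGtctgcacattggtt
miR-199a-3p, 787 reads: aCAGTAGTctgcacattggttaa
miR-199a-5p, 416 reads: cCCAGTGTttagactacctgttc
miR-199a-5p, 203 reads: cCCAGTGTtcagactacctgttc
miR-199a-5p, 179 reads: cCCAGTGTtcagactacctgtta
miR-199a-5p, 162 reads: cCCAGTGTtcagactacctgt
miR-214-3p, 384 reads: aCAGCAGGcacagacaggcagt
miR-214-3p, 125 reads: tACAGCAGgcacagacaggcagt
miR-214-5p, 50 reads: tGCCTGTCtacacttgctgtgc
miR-214-5p, 13 reads: tGCCTGTCtacacttgctgtga
miR-214-5p, 10 reads: tGCCTGTCtacacttgctgt
These are the up to 4 most abundant sequences of an arm that held at least 5% of its reads. The RefSeq sequence itself had 2039 reads for miR-199a-3p, 203 for miR-199a-5p, 43 for miR-214-3p and 1 for miR-214-5p.

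Abundance came first from the 3p arm of miR-199a, which gave 14240 of 15973 miR-199a reads in 266 sequences, against 1733 reads in 75 sequences for the 5p arm. The 3p arm of miR-214 gave 993 of 1085 miR-214 reads, the 5p arm 86, and 6 reads came from the loop between them. In epicardium of hearts 6, 7 and 8 miR-199a-3p was detected at 1954, 1879 and 1199 RPMM, at 2204, 2471 and 2422 in mid-myocardium, and at 2011, 1149.8 and 2274 in endocardium. The 3 mid-myocardial libraries were close together and 2 libraries, epicardium of heart 8 and endocardium of heart 7, were low. By layer the means were 1677 ± 416 (SD, n = 3), 2366 ± 142 and 1812 ± 588. miR-199a-5p was at 149, 228 and 218 RPMM in the same epicardial libraries, 243, 236 and 255 in mid-myocardium, and 336, 189.8 and 249 in endocardium. Here epicardium of heart 6 was the lowest library and endocardium of heart 6 the highest.

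miR-214-3p was detected at 138, 149 and 91.2 RPMM in epicardium of hearts 6, 7 and 8, at 183, 112 and 131 in mid-myocardium, and at 95.6, 125 and 187 in endocardium. Its low and high libraries fell in every layer and every layer overlapped the others. The layer means of miR-214-3p were 126 ± 30.8, 142 ± 37.0 and 136 ± 46.5 RPMM (SD, n = 3). miR-214-5p stood at 8.51, 12.98 and 4.29 RPMM in epicardium, 14.1, 13.3 and 12.3 in mid-myocardium, and 9.84, 10.5 and 19.7 in endocardium, which are 4 to 15 reads a library. Among the 439 strands with rat reads, with the members split into arms, miR-199a-3p ranked 41st by mean RPMM, miR-199a-5p 92nd, miR-214-3p 112th and miR-214-5p 198th. In order of level miR-199a-3p was above miR-199a-5p by 5.50 to 13.1 times within a library, and miR-199a-5p above miR-214-3p by 1.08 to 3.51 times. The gap between miR-199a-5p and miR-214-3p was thus as small as 140 against 130 reads in epicardium of heart 6, while both stood above miR-214-5p in all 9 libraries.

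**Figure D1:**
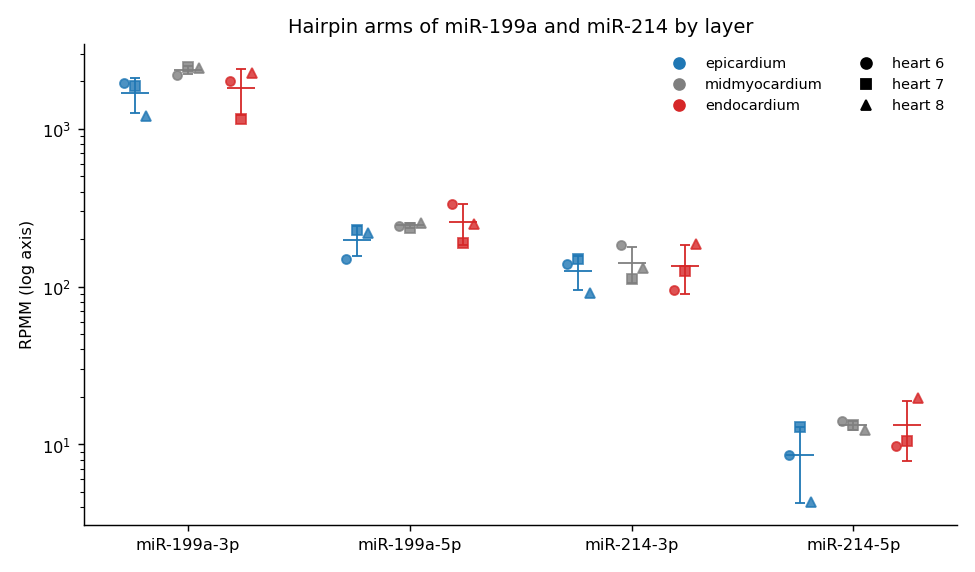
Abundance of the 4 hairpin arms in each library, in RPMM on a log axis, by layer (colour) and heart (symbol), with the mean as a dash and the SD over 3 hearts as a bar. The libraries of miR-199a-3p sit between 1149.8 and 2471 RPMM and those of miR-214-5p between 4.29 and 19.7.

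How the annotation filed the reads changes what is seen of miR-199a. All 14240 reads of miR-199a-3p were filed as precursor matches and none as a mature or * strand, whereas 106 of the 1733 miR-199a-5p reads were filed that way. Over both arms 89.8% of miR-199a reads were precursor matches, against 11.2% for miR-214 and a median of 2.31% over the 96 rat miRNAs with at least 1000 reads. This share was exceeded by mir-208b (99.9%) and mir-148b (99.7%), and 5 of the 96 were above 50%. The deposited values grouped on the mature sequence therefore held the 5p arm of miR-199a. They ran from 149.7 to 339 for miR-199a, where all reads gave 1339.6 to 2707 RPMM, so all reads stood 6.40 to 14.0 times above the grouped value of the same library. For miR-214 the grouped values, 98.5 to 195, were close to all reads, which stood at 0.970 to 1.10 times the grouped value, and 962 of its 1085 reads were filed as mature. The grouped values are on a smaller total of reads than RPMM, which was the same for both miRNAs in each library.

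**Figure D2:**
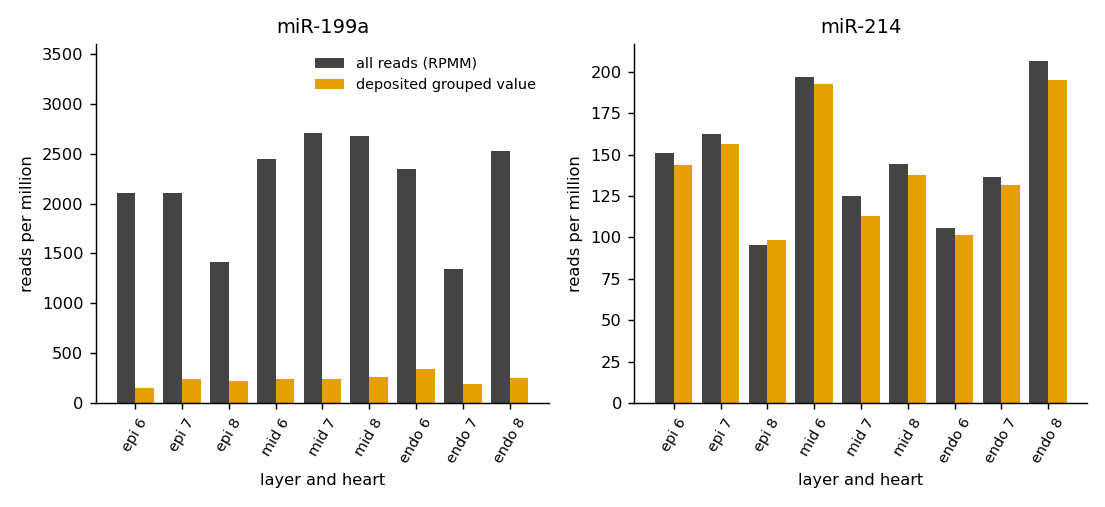
Level of miR-199a and miR-214 in each of the 9 libraries, from all reads in RPMM (dark bars) and as the deposited value grouped on the mature sequence (orange bars, scaled to a smaller total). The miR-199a bars differ by 6.40 to 14.0 times and the miR-214 bars by 0.970 to 1.10 times.

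The comparison of endocardium with epicardium asks whether the level differs across the wall. For miR-199a, both arms together, the epicardial libraries of hearts 6, 7 and 8 were at 2103, 2107.5 and 1417 RPMM and the endocardial ones at 2347, 1339.6 and 2523. The layers overlapped, with endocardium higher in 2 of 3 hearts, and 9.29% of 226 strands did not overlap in either direction. The difference in log2(RPMM + 1) was 0.11 ± 0.34 (SE), with a 95% interval of -0.67 to 0.90 and an adjusted p of 0.999 (limma, Benjamini-Hochberg over 226 strands). For miR-214 the epicardial libraries were at 151, 162 and 95.5 RPMM and the endocardial ones at 105, 137 and 207, and endocardium was higher in 1 of 3 hearts. These levels include 1 read filed as * in epicardium of heart 6, which the limma tests of miR-214 left out. The miR-214 difference was 0.12 ± 0.35 with an interval of -0.69 to 0.92 and an adjusted p of 0.999 by limma. Neither member passed the test, and of the 226 strands limma called 0% (9 at an unadjusted p under 0.05, 3.98%). edgeR and DESeq2 also called 0. The signs of these differences rest on single libraries. Without epicardium of heart 8 the difference was -0.08 for miR-199a and -0.12 for miR-214, without endocardium of heart 8 it was -0.06 and -0.14, and without endocardium of heart 6 it was -0.0050 for miR-199a.

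Mid-myocardium had the highest mean level of miR-199a. All 3 mid-myocardial libraries, at 2447, 2707 and 2677 RPMM, were above all 3 epicardial ones, so the layers did not overlap. Of the 225 strands tested 5.33% lay in this way with mid-myocardium above epicardium, and 12.4% did not overlap in either direction. The means were 2610 ± 142 against 1876 ± 397 RPMM (SD, n = 3) and the difference in log2(RPMM + 1) was 0.50 ± 0.26, with an interval of -0.10 to 1.10, an unadjusted p of 0.0904 and an adjusted p of 0.766 by limma. It did not pass the test, and limma called 0% of the 225 strands (18 at an unadjusted p under 0.05, 8%), edgeR 0 and DESeq2 1, which was not a member. Both arms of miR-199a were higher in mid-myocardium of all 3 hearts without overlap, by 0.53 ± 0.27 for miR-199a-3p and 0.32 ± 0.26 for miR-199a-5p. Without epicardium of heart 8 the difference was 0.31 for miR-199a and 0.30 for miR-199a-3p, and without epicardium of heart 6 it was 0.13 for miR-199a-5p. The summed cardiomyocyte list averaged 118443 ± 20599 RPMM in mid-myocardium and 87776 ± 29352 in epicardium. Its libraries overlapped and 0 of its 6 miRNAs were called. All 6 were higher in mid-myocardium, with a median log2 difference of 0.40. Over all 225 strands 124 were higher, and the median was 0.050. mir-133a made up most of the cardiomyocyte sum, at 109289 and 80726 RPMM. The summed fibroblast and mesenchyme list averaged 21720 ± 2917 RPMM in mid-myocardium and 25957 ± 8755 in epicardium. Of its 10 miRNAs 7 were higher in mid-myocardium by log2 difference and 3 lower, beside 124 and 101 of the 225 strands. The 3 lower were mir-100, at 1711 RPMM against 5117 in epicardium, mir-125b, at 4679 against 7083, and mir-152, at 176 against 207. The part of either list in the miR-199a values was not tested. miR-214 overlapped between these layers, at 197, 125 and 144 RPMM in mid-myocardium, with a difference of 0.20 ± 0.31 and an adjusted p of 0.876 by limma, and without epicardium of heart 8 the difference was -0.032.

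Against mid-myocardium, endocardial miR-199a was lower in all 3 hearts, although the layers overlapped, as all but 9.82% of the 224 strands did. The difference was -0.39 ± 0.29 in log2(RPMM + 1), with an interval of -1.07 to 0.30 and an adjusted p of 0.830 by limma over 224 strands. Without endocardium of heart 7 it was -0.10. The cardiomyocyte list averaged 86183 ± 21889 RPMM in endocardium, of which mir-133a was 78650.5. Of the list's 6 miRNAs 5 were below mid-myocardium, none was called and the median difference was -0.45. Over all 224 strands 113 were below mid-myocardium, and the median was -0.0033. The part of this list in the miR-199a values was not tested. For miR-214 the difference was -0.085 ± 0.32, the interval -0.84 to 0.67 and the adjusted p 0.983. limma called 0% of the 224 strands (9 at an unadjusted p under 0.05, 4.02%), and edgeR and DESeq2 called 0. The intervals of every arm in every pair of layers included 0, and the widest, that of miR-214-5p between endocardium and epicardium, ran from -0.35 to 1.60.

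**Figure D3:**
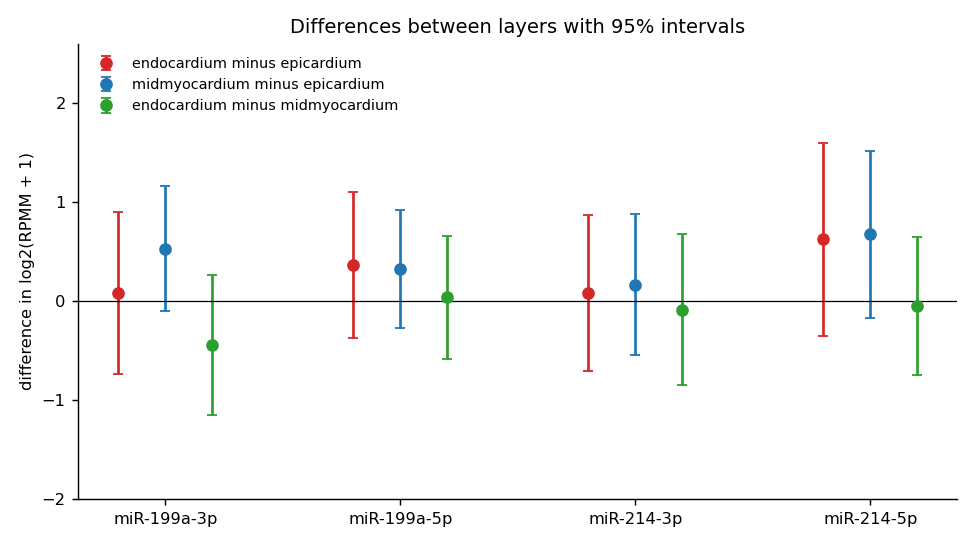
Difference between layers in log2(RPMM + 1) for each hairpin arm, with bars for the 95% interval from limma (3 libraries a layer). All 12 intervals include 0, and the points run from -0.44 to 0.68.

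The single sequences were tested in the same way. Of the 466 member sequences 35 had at least 10 reads in at least 1 library of the endocardium and epicardium, and none was called, against 0% of 2400 rat sequences (71 at an unadjusted p under 0.05, 2.96%, by limma). None of the 35 was under 0.05 unadjusted. Between mid-myocardium and epicardium 31 were tested and 2 were under 0.05 unadjusted, both higher in mid-myocardium, where 0% of 2239 sequences were called and 3.84% were under 0.05 unadjusted. Between endocardium and mid-myocardium 36 were tested and 2 were under 0.05 unadjusted, both lower in endocardium and both of miR-199a-3p, beside 0% called and 3.89% under 0.05 unadjusted of 2390 sequences. edgeR and DESeq2 called 0 sequences in each of the 3 comparisons.

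Between hearts neither member passed the test. miR-199a averaged 2299 ± 177 RPMM over the layers of heart 6, 2051 ± 685 in heart 7 and 2206 ± 687 in heart 8, and miR-214 151 ± 45.9, 141 ± 19.1 and 149 ± 55.6 (SD, n = 3 layers). In a limma F test over hearts with layer as a covariate the adjusted p was 0.902 for miR-199a and 0.990 for miR-214, where 0% of 228 strands were called (28 at an unadjusted p under 0.05, 12.3%). edgeR called 7 and DESeq2 10 strands, and neither member was among them. The SD between the 3 heart means was 0.11 in log2(RPMM + 1) for miR-199a and 0.030 for miR-214, and that between the 3 layer means 0.26 and 0.10.

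The 2 miRNAs did not follow each other closely from library to library. Over the 9 libraries, which share hearts and were made as one series, the Pearson r of their log2(RPMM + 1) values was 0.43 and the Spearman rho 0.25. The 154 other strands with at least 10 reads in every library were ranked in the same way. The closest to miR-199a were mir-223 (r = 0.94, rho = 0.70, mean absolute difference of centred values 0.23), mir-133a (0.91, 0.62 and 0.16) and mir-26a (0.87, 0.50 and 0.16), and miR-214 came 59th. The closest to miR-214 were mir-15b (r = 0.79, rho = 0.85, difference 0.32), mir-421* (0.77, 0.87 and 0.19) and mir-1 (0.69, 0.73 and 0.24), and miR-199a came 23rd. miR-214 had 56 to 195 reads a library, and mir-223 had 314 over the 9 libraries. The part of counting error in these correlations was not tested. The number of miR-199a reads per miR-214 read ranged from 9.81 in endocardium of heart 7 to 22.3 in endocardium of heart 6.

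The strands also varied at their ends. In miR-199a-3p the most common sequence, 21 nts long and 1 nt shorter than the RefSeq entry at the 3′ end, made up 43.4% ± 2.01 of the arm's reads (SD over 9 libraries), with 40.8% to 47.7% in single libraries. The RefSeq sequence made up 14.2% ± 1.13. The spread over libraries was small for this arm, which had 626 to 2550 reads a library. In miR-214-3p the sequence 1 nt longer at the 3′ end made up 39.4% ± 8.18, and the RefSeq sequence 4.98% ± 3.38. Reads longer than the entry at the 3′ end were 82.7% of miR-214-3p reads and 12.5% of miR-199a-3p reads, and shorter ones 3.63% and 66.9%.

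Both 3p arms had reads that began 1 nt upstream of the RefSeq 5′ end, which moves the seed. For miR-199a-3p these were 1919 of 14240 reads, 13.5% (interval 12.9 to 14.0), and reads 1 nt shorter were 6.19% (5.81 to 6.60). By library the longer form was 10.5%, 13.5% and 15.4% in epicardium of hearts 6, 7 and 8, 11.8%, 13.6% and 13.1% in mid-myocardium, and 12.6%, 17.0% and 13.6% in endocardium. For miR-214-3p the longer form was 283 of 993 reads, 28.5% (25.8 to 31.4). It was 21.5%, 35.7% and 35.3% in epicardium, 19.2%, 28.6% and 22.5% in mid-myocardium, and 25.0%, 30.7% and 33.1% in endocardium, and it was above the share in miR-199a-3p in 9 of 9 libraries. No RefSeq rat mature entry of the 724 held the shifted seed of either strand. The 5p arm of miR-199a began at the RefSeq 5′ end in 1713 of 1733 reads, 98.8% (98.2 to 99.3).

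A last nt that does not match the hairpin was called from the RefSeq strand, and past it, for miR-214, from the RefSeq hairpin. For miR-199a the bases past the strand were taken from reads of the authors' alignment without a mismatch, as no rat mir-199a hairpin was used here, and further out from the authors' mismatch number. Such reads were 19.0% of miR-199a-3p, 30.5% of miR-199a-5p and 30.2% of miR-214-3p. The added nt was mostly A or T. In miR-199a-3p it was A in 11.9% of reads and T in 6.00%, in miR-214-3p A in 19.9% and T in 8.26%, and in miR-199a-5p T in 16.4% and A in 12.9%. G and C were each at most 1.41% in these 3 strands.

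Between endocardium and epicardium the make-up of the strands was compared with 6 exact two-sided permutation tests, which with 3 against 3 libraries cannot go below a p of 0.1. miR-199a-3p was the arm with at least 100 reads in every library, so its isomiRs were the ones tested. The exact mature sequence made up 14.4% ± 1.71 of its reads in epicardium and 13.7% ± 0.98 in endocardium (exact p = 0.6), other 5′ ends 20.1% ± 2.93 and 21.9% ± 2.08 (exact p = 0.4), and an unmatched last nt 19.3% ± 0.211 and 19.8% ± 1.81 (exact p = 0.8). The log2 ratio of 3p to 5p reads was 3.07 ± 0.63 and 2.79 ± 0.35 for miR-199a (exact p = 0.7) and 3.99 ± 0.44 and 3.37 ± 0.18 for miR-214 (exact p = 0.2). The log2 ratio of miR-199a to miR-214 was 3.80 ± 0.10 and 3.79 ± 0.61 (exact p = 1). All 6 overlapped between the layers, and the adjusted p was 0.96 or above.

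The most common miR-199a-5p sequence differed from the RefSeq entry by C10T, where the entry's base comes first and positions are counted from 1 at its 5′ end. The forms are shown with base 10 in capitals.
RefSeq form, 203 reads: cccagtgttCagactacctgttc
C10T form, 416 reads: cccagtgttTagactacctgttc
With all ends included, 596 of 1733 miR-199a-5p reads carried C10T, 34.4%. The next substitution in the first 18 bases of this arm was T8C with 3 of 1729 reads, 0.174%, and the largest in the first 18 bases were 0.0632% for miR-199a-3p (T5C) and 0.403% for miR-214-3p (G18A). Within the first 18 bases C10T was thus far above the other differences of these arms. At the last base, where nts are also added, other differences were common, such as C23A with 190 of 1215 miR-199a-5p reads, 15.6%. C10T lies outside the seed, which both forms share.

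C10T was present in every library and its share varied. In epicardium of hearts 6, 7 and 8 it was 28.6% (interval 21.7 to 36.5), 35.2% (28.6 to 42.5) and 32.5% (26.4 to 39.2). In mid-myocardium it was 43.5% (32.4 to 55.2), 42.7% (35.7 to 50.04) and 29.5% (24.3 to 35.2), and in endocardium 46.0% (39.8 to 52.4), 32.8% (27.5 to 38.6) and 23.3% (17.8 to 29.8). The range within endocardium covered that of both other layers, and its highest and lowest intervals did not overlap. Reads with C10T were at 64.6 ± 19.7 RPMM in epicardium, 93.9 ± 16.5 in mid-myocardium and 91.6 ± 54.6 in endocardium (SD, n = 3), and those with the RefSeq base at 134 ± 23.7, 151 ± 24.9 and 167 ± 34.1.

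The reads with and without C10T also differed at their 3′ ends. Of the reads with C10T 73.2% (69.5 to 76.6) ended where the RefSeq entry ends, 14.1% (11.5 to 17.1) ended earlier and 11.9% (9.55 to 14.8) had an unmatched last nt. Of the reads with the RefSeq base the shares were 41.5% (38.7 to 44.4), 38.2% (35.4 to 41.0) and 40.2% (37.4 to 43.1). The annotation allowed at most 2 mismatches, and C10T uses 1 of them, which leaves fewer for unmatched 3′ nts. An earlier end uses no mismatch. The part of this limit in the different 3′ ends was not tested. mir-199b, which is a related hairpin with nearly the same 5p arm and, in human and mouse, the same 3p strand, had no reads under a rat entry in these data but had reads under entries of other species. Under the mir-199b entries of mouse and cow, 20 reads without a mismatch covered base 10, of which 20 had T and 0 had C. These reads match their entries, so T is the base of those entries there, as in the C10T form. Whether reads of a mir-199b hairpin are among those filed as rat mir-199a was not tested, and for the 3p strand the sequence cannot tell the hairpins apart.

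**Figure D4:**
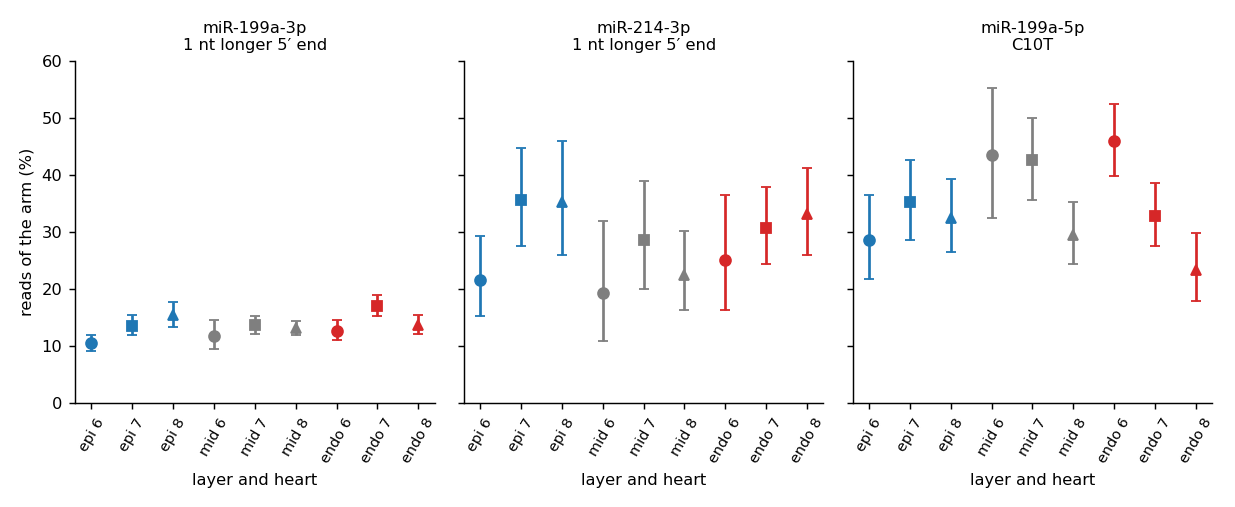
Share of an arm's reads, in percent, that began 1 nt upstream of the RefSeq 5′ end (miR-199a-3p and miR-214-3p) or carried C10T (miR-199a-5p) in each library, with 95% Wilson intervals. The upstream form is at 10.5% to 17.0% in miR-199a-3p and 19.2% to 35.7% in miR-214-3p, and C10T is at 23.3% to 46.0%.

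Reads of the miR-214 5p arm did not fall on the RefSeq miR-214-5p. The hairpin (RefSeq, GRCr8, chr13:77121645-77121752, plus strand) is shown with the most common 5p read and the RefSeq 3p strand in capitals.
Mir214: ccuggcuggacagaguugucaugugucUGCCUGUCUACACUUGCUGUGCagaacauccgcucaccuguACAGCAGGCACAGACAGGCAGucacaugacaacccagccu
The RefSeq 5p strand covers positions 12 to 28 of the hairpin and had 1 read, in epicardium of heart 6, which was filed as mature*. The most common 5p read covers positions 28 to 49, so its start lies 16 nts further on, and 79 of the 86 reads of the arm, 91.9% (84.1 to 96.0), began there. Its bases 2 to 8 were the seed of none of the 724 RefSeq rat mature entries, and entries of other species were not searched for it. The 6 loop reads lay between the arms: 5 of them began at position 50, directly after that read, and 4 ended at position 68, directly before miR-214-3p. They came from 3 libraries.

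**Figure D5:**
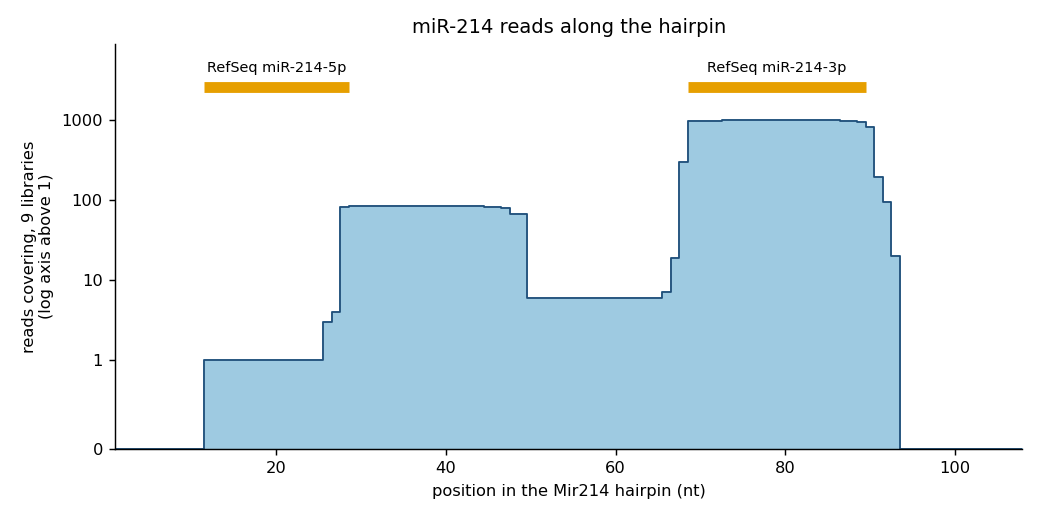
Number of miR-214 reads of all 9 libraries that cover each position of the 108-nt hairpin, on an axis that is logarithmic above 1, with the RefSeq strands as orange bars. Most 5p reads lie from position 28 to 49, past the RefSeq 5p strand at 12 to 28, to which 1 read corresponds.

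Of the 12 fibroblast and mesenchyme miRNAs, 10 were tested between layers and none passed in any of the 3 comparisons. The median log2 difference of the 10 was -0.014 between endocardium and epicardium, 0.075 between mid-myocardium and epicardium and -0.10 between endocardium and mid-myocardium, beside 0.021, 0.050 and -0.0033 over all strands tested. Their level spanned mir-224 at 29.8 to 98.6 RPMM and mir-29a, which represses collagen genes, at 4041 to 11425 RPMM. mir-21, known to rise in activated fibroblasts, was at 2167 to 3366 RPMM, close to the level of all miR-199a reads. miR-214 was thus among the less abundant of the list, with mir-224 below it in all 3 layer means. Of the lists for endothelium, smooth muscle, red cells, leukocytes, and epithelium and mesothelium, 0 miRNAs were called in any of the 3 comparisons. limma called 0% of all strands in each. In this order 4 of 4, 2 of 2, 2 of 3, 4 of 4, and 3 or 4 of 6 miRNAs were tested. mir-200b was lower in mid-myocardium than in epicardium at an unadjusted p of 0.034 (adjusted 0.58, limma).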

How the data were processed

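Per the study's methods, the authors sequenced TruSeq small RNA libraries and aligned trimmed reads to miRBase in CLC Genomics Workbench, with at most 2 mismatches. They deposited each annotated sequence as RPM over the annotated reads of its library (RPMM), from which whole reads were recovered (100% of values, tolerance 0.01 reads). The grouped signal the authors deposited is scaled to a smaller total, and the unannotated table they deposited holds read counts. None of its 13317 sequences, which had a minimum of 10 reads, contained 13 nts of a member strand. Rarer sequences were left out, so this search cannot show whether the annotation missed reads of the members.

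Members were taken by name and aligned to the RefSeq strands. Their arms were added as features after the data were seen, and the members and lists were chosen with earlier results of these data known. Layers were compared on log2(RPMM + 1) for features that reached 10 reads in any library compared, with limma 3.58.1, Benjamini-Hochberg adjustment and a threshold of 0.05. edgeR 4.0.16 and DESeq2 1.42.0 on recovered reads, other scalings, filters and pseudocounts and leaving out libraries were alternatives. The fit was tested on simulated data. Sequences named were the mature strand and up to 4 of an arm with at least 5% of its reads. The heart number pairs libraries of 1 animal, and the correlation of their deviations from layer means in hearts 6, 7 and 8 was 0.37, -0.28 and 0.029 for endocardium with epicardium, 0.39, 0.15 and 0.058 for mid-myocardium with epicardium and 0.28, 0.18 and 0.17 for endocardium with mid-myocardium. Libraries of a layer come from separate animals.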

Additional observations from a re-analysis of the deposited data

Results flagged for a closer look

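Reads of these miRNAs also stood outside the rows analysed. Entries of other species named mir-199 held 188 reads in 50 sequences, 1.18% of the number under rat mir-199a, and entries of other species named mir-214 held 55 reads in 24 sequences, 5.07% of the number under rat mir-214. They were picked out because the comparisons did not use them and they exceeded the 3 reads taken as the smallest number that can be shown. Rhesus macaque mir-199a-2 had 95 of the 188 reads and zebrafish mir-214 35 of the 55. Every library held some, 5 to 29 reads of mir-199 and 2 to 12 of mir-214.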

How the results depend on the processing

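Over 357 values of the members under the main and other settings 0 were called, the lowest adjusted p was 0.482 and 28 changed sign. The replicate block for heart changed no call, and the adjusted p of miR-199a between mid-myocardium and epicardium was 0.529 with the block. Among all strands DESeq2 called 1 between mid-myocardium and epicardium, and leaving out 1 library gave 0 to 3 between endocardium and epicardium, with 3 without endocardium of heart 7. Among all sequences no filter gave 8, 1 and 1 calls in endocardium against epicardium, mid-myocardium against epicardium and endocardium against mid-myocardium, and a pseudocount of 0.1 gave 1 in the last. Between hearts a pseudocount of 10 gave 5 calls, at least 10 reads in every library 4, DESeq2 size factors 1, rat reads as the total 1, edgeR 7, DESeq2 10 and limma-trend 5, and leaving out 1 heart gave 0 to 4, with 4 without heart 8. With exact mature sequences only, miR-199a was the RefSeq miR-199a-5p sequence with its 203 reads, as all miR-199a-3p reads were filed as precursor. Its difference was -0.25 between mid-myocardium and epicardium and 0.52 between endocardium and mid-myocardium. Without reads filed as precursor, which also leaves out miR-199a-3p, the miR-199a difference between endocardium and mid-myocardium was 0.037. With rat reads as the total, endocardium minus mid-myocardium was 0.0089 for miR-214, 0.0085 for miR-214-3p and 0.036 for miR-214-5p, and for miR-214-5p it was 0.016 by edgeR and 0.015 by DESeq2. The cause of the changes of miR-214 and its arms was not tested. Leaving out 1 library moved endocardium minus epicardium from -0.078 to 0.40 for miR-199a, -0.14 to 0.34 for miR-214, -0.14 to 0.38 for miR-199a-3p, -0.17 to 0.31 for miR-214-3p, 0.15 to 0.57 for miR-199a-5p and 0.25 to 0.95 for miR-214-5p. Mid-myocardium minus epicardium ran from 0.31 to 0.59 for miR-199a, 0.30 to 0.65 for miR-199a-3p, 0.13 to 0.44 for miR-199a-5p, -0.032 to 0.35 for miR-214, -0.049 to 0.32 for miR-214-3p and 0.30 to 1.00 for miR-214-5p. Endocardium minus mid-myocardium ran from -0.56 to -0.10 for miR-199a, -0.64 to -0.14 for miR-199a-3p, -0.34 to 0.14 for miR-214 and for miR-214-3p, -0.17 to 0.24 for miR-199a-5p and -0.35 to 0.12 for miR-214-5p. For make-up it ran from -1.59 to 0.063 percentage points for the exact mature miR-199a-3p and -0.46 to 1.33 for its unmatched last nt, 0.757 to 3.53 for its other 5′ ends, and on the log2 scale from -0.59 to 0.041 for 3p over 5p of miR-199a, -0.85 to -0.41 for 3p over 5p of miR-214 and -0.34 to 0.25 for miR-199a over miR-214. No value could be had for miR-214 with exact sequences only, since it had under 10 reads in every library. At 4 to 15 reads a library the depth limits miR-214-5p.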
